A study of Mus musculus with 8 samples.

Results

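The Zfp genes of the mouse encode zinc finger proteins, most of them of the C2H2 type, in which each finger folds around a zinc ion held by a pair of cysteines and a pair of histidines. The members described here were all genes whose symbol is Zfp followed by a digit, with Zfp42 left out, whose mean over the GFP-OE and KLF3-OE columns was at least 1 FPKM (fragments mapped, scaled by transcript length and by library size). The members were thus chosen by measured values, namely the levels of the overexpression experiment but not their difference. Of 340 genes of this symbol pattern in the overexpression table, 278 met the limit and 62 did not, out of 14319 genes listed and 11179 genes at or above 1 FPKM. The sorted-cell table listed 270 of the 278 members. Of these, 148 had a mean of at least 1 FPKM there and 122 were below it, and 8 members were not listed.

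The series holds RNA-seq of 8 samples of mouse embryonic stem cells (mESCs) from a C57BL/6(F) x 129/sv(M) cross, grown on gelatin in serum with leukemia inhibitory factor. In the overexpression experiment, GFP (GFP-OE) or a codon-optimized KLF3 (KLF3-OE) was induced for 72 h with doxycycline from an FRT site at Col1a1, in cells with the M2rtTA activator at R26, and poly(A) RNA was sequenced. In the sorting experiment, 500 cells per sample with or without the KLF3-GFP signal were sequenced after Smart-seq2. All of these carried a CAGGS-driven fusion of the KLF3 N terminus, which lacks the DNA-binding domain, to GFP, and came from picked DsRed-positive colonies. Each condition had 2 samples, but each table gave 1 column per condition, which the authors made as a mean of both, so no spread between replicates, SD or test can be given for any value. Differences were taken as log2(FPKM + 1) between the columns of 1 experiment, and 2-fold and 0.5-fold limits on that scale served as a description only.

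Many mammalian C2H2 proteins carry a KRAB box near the N terminus, which binds the corepressor TRIM28 (KAP1). TRIM28 in turn brings the histone methyltransferase SETDB1, HP1 proteins and, in early embryos and mESCs, DNA methylation to the sites that the fingers bind, many of them in retroelements. KRAB zinc finger genes multiplied by tandem duplication and lie in clusters on a few chromosomes. Members without a KRAB box are of mixed function and include transcription factors, RNA-binding proteins and a SUMO ligase.

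Of the 276 members whose protein could be translated from the GENCODE M21 coding sequence, 151 carried a KRAB box and 125 did not. The median number of C2H2 fingers was 10 over these members, 12 with a KRAB box and 7 without, and Zfp462 had the most with 33. The finger pattern was absent from 9 members. Among them were Zfp36, Zfp36l1 and Zfp36l2, which have CCCH fingers and promote decay of mRNAs with AU-rich elements. Members lay on 20 chromosomes, 68 of them on chromosome 7, 39 on chromosome 17, 26 on chromosome 13 and 18 on chromosome 8. Reads of 28 members could have been split with a near-identical copy, since their protein was at least 80% identical over at least 80% of its length to another C2H2 protein. Of these, 27 carried a KRAB box. A further doubt concerns 15 members that overlapped another listed gene, 4 of them on the same strand.

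Some facts of the whole series touch the values that follow. The 6 stem cell markers were above 3 FPKM in every column, but many were lower with KLF3. On overexpression 4 of 6 were lower and 2 below 0.5-fold, Nanog (254.52 and 102.59 FPKM) and Esrrb (137.73 and 60.31), while Pou5f1 was at 883.19 and 989.69. In positive cells all 6 were lower and 4 below 0.5-fold, with Pou5f1 at 114.62 FPKM in negative and 59.43 in positive cells. Of the feeder fibroblast markers Col1a1 and Col1a2 were at most 0.40 FPKM, Thy1 was at 2.72 and 3.14 on overexpression and at most 0.45 in sorted cells, and Postn and Lum were not listed. All 5 primitive endoderm markers were past 2-fold in KLF3-OE and in KLF3-GFP-positive cells, with summed levels of 13.41 against 69.85 FPKM and of 6.68 against 340.39 FPKM. Of the trophoblast list, Krt8 and Krt18 were past 2-fold in both experiments. Eomes stayed within the limits, at 3.04 and 3.43 FPKM on overexpression and at 0.83 and 1.48 in sorted cells. Cdx2 was at most 0.60 FPKM, and Elf5 was not listed. Klf3 was listed at 58.66 FPKM in GFP-OE and 47.76 in KLF3-OE, and at 107.04 in negative and 122.29 in positive cells. Whether reads of the codon-optimized transgene, or of the KLF3-GFP fusion in sorted cells, were counted under this name was not tested. The FPKM values of the overexpression table added up to 612621 and 834882, and ribosomal protein genes held 29.0% of the first and 39.0% of the second. The part of these differences in the Zfp values was not tested. In bulk RNA, fewer cells of a type and less RNA per cell cannot be told apart.

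The first comparison asked how the Zfp members differed after 72 h of KLF3 induction. Most were lower in KLF3-OE than in GFP-OE: the members' median level was 4.72 FPKM in GFP-OE and 2.70 FPKM in KLF3-OE, and their summed level was 2513.12 and 2018.54 FPKM. As a share of all FPKM in the table they went from 0.410% to 0.242%. The median difference over the 278 members was -0.60 on the log2(FPKM + 1) scale, with quartiles of -0.89 and -0.21, where all 11179 genes tested had a median of -0.18. The members thus lay 0.42 log2 units below the general shift, and 76.3% of them were under the median of all genes. A lower value in KLF3-OE was found in 84.2% of members and in 59.4% of all genes.

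Past the fold limits, 46 members (16.5%) were below 0.5-fold, where the share of all genes tested was 10.1%, and 2 members (0.72%) were above 2-fold, where the share of all genes was 6.6%. The split depended on scaling. With the median ratio of the columns set to 0, 28 members (10.1%) were below and 8 (2.9%) above. The shares of all genes were then 6.4% and 10.6%. With quantile normalization 19 members (6.8%) were below and 9 (3.2%) above, beside 6.4% and 7.2% of all genes. The excess of members below 0.5-fold was thus small with quantile normalization. The family as a whole therefore showed many modest differences of like sign, and few members stood at the high end.

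**Figure D1:**
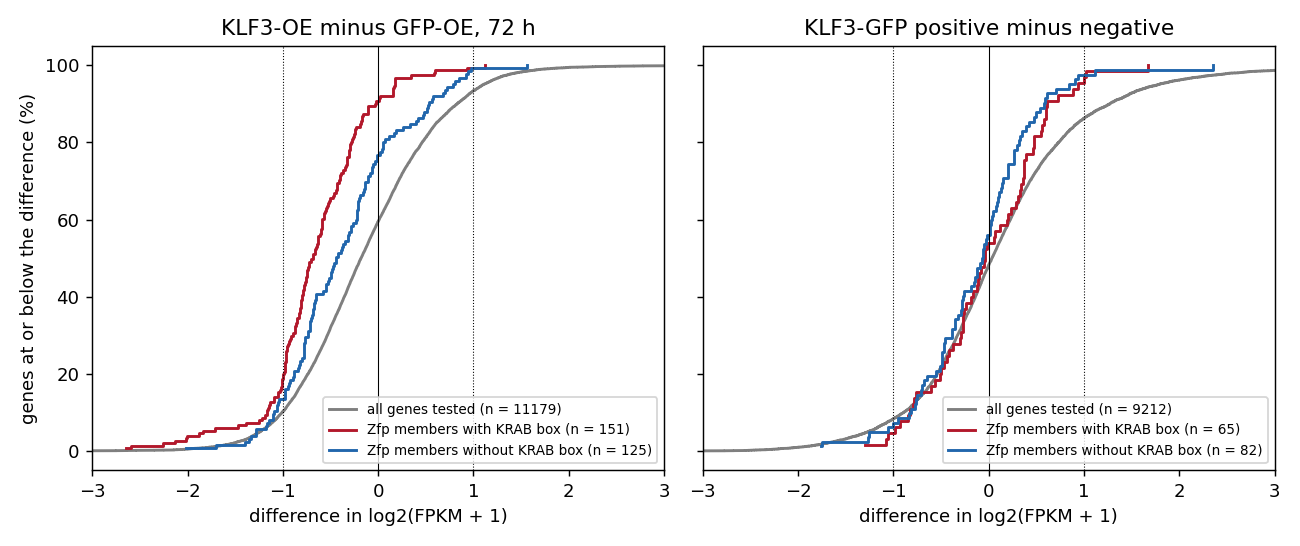
Cumulative share of genes (percent) against the difference in log2(FPKM + 1) for all genes tested, Zfp members with a KRAB box and members without, in the overexpression experiment (left) and in sorted cells (right). Vertical dotted lines mark 2-fold and 0.5-fold, and differences beyond -3 and 3 are not drawn. On overexpression the members lie left of all genes, with medians of -0.69 with a KRAB box and -0.44 without, and in sorted cells the 3 lines cross near 0.

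Members with a KRAB box were lower more often than the rest. Of the 151, 137 (90.7%) were lower in KLF3-OE, 28 (18.5%) were below 0.5-fold and 1 (0.66%) was above 2-fold, with a median difference of -0.69. Of the 125 members without the box, 76.8% were lower, 17 (13.6%) were below 0.5-fold and 1 (0.8%) above 2-fold, with a median of -0.44. The shares of all genes were 59.4% lower, 10.1% below 0.5-fold and 6.6% above 2-fold. With a KRAB box, the difference also varied with the number of fingers: the median was -0.37 for the 35 members with 5 to 9 fingers, -0.73 for the 75 with 10 to 14 and -0.84 for the 36 with 15 or more. The 4 members with 1 to 4 fingers had a median of 0.24, and the 1 with none was at -1.48. From 5 to 9 fingers upward, the median GC content of the transcripts fell in the same order, with 46.0%, 43.7% and 41.1%. The part of GC content in this order was not tested. In the class of 10 to 14 fingers 98.7% of members were lower. Members without a KRAB box showed no such order. Their median was -0.25 for the 8 with no C2H2 finger. From 1 to 4 fingers up to 15 or more, the medians were -0.45, -0.51, -0.38 and -0.38.

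The same direction was found in zinc finger genes with other symbols, so it was not particular to the name Zfp. The 76 KRAB genes with other symbols had a median of -0.74, with 31 (40.8%) below 0.5-fold, none above 2-fold and 94.7% lower. The 212 C2H2 genes with other symbols and no KRAB box had a median of -0.57, with 51 (24.1%) below 0.5-fold and 4 (1.9%) above 2-fold. Of all genes tested, 10.1% were below 0.5-fold, 6.6% above 2-fold and 59.4% lower. Among families outside the members, the median was -0.42 for 33 Zbtb genes (5 below 0.5-fold, 1 above 2-fold), which pair fingers with a BTB domain, and -0.58 for 20 Zscan and Zkscan genes (5 below), which carry a SCAN domain. The Zmy genes take in the Zmym genes with MYM-type and the Zmynd genes with MYND-type fingers. Their median was -0.89 over 10 genes, with 4 (40.0%) below 0.5-fold. The Zdhhc genes, which encode palmitoyltransferases, stood at -0.16 over 17 genes, close to all genes, and the 10 Zc3h genes, of the CCCH type, at -0.30.

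Differences on overexpression moved with base composition over all genes, and members with a KRAB box had transcripts with little G and C. The median GC content was 43.9% for members with a KRAB box and 51.3% for members without. In 5 equal classes of all genes by the GC content of their transcripts, the median difference of all genes ran from -0.51 in the lowest class to 0.13 in the highest. The lowest class held 124 members (44.9% of those with a value). Within each class the members' median was below that of all genes, with differences between the medians of -0.24, -0.34, -0.20, -0.28 and -0.15 from the lowest to the highest GC content. With this trend removed by a smooth curve, the median over members was -0.24 and the medians with and without a KRAB box, -0.25 and -0.24, were close to each other. Then 16 members (5.8%) were below 0.5-fold, close to the 5.2% of all genes, and 4 (1.4%) above 2-fold, beside 8.5%. Whether GC content is a mark of the family or of the libraries was not tested.

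**Figure D2:**
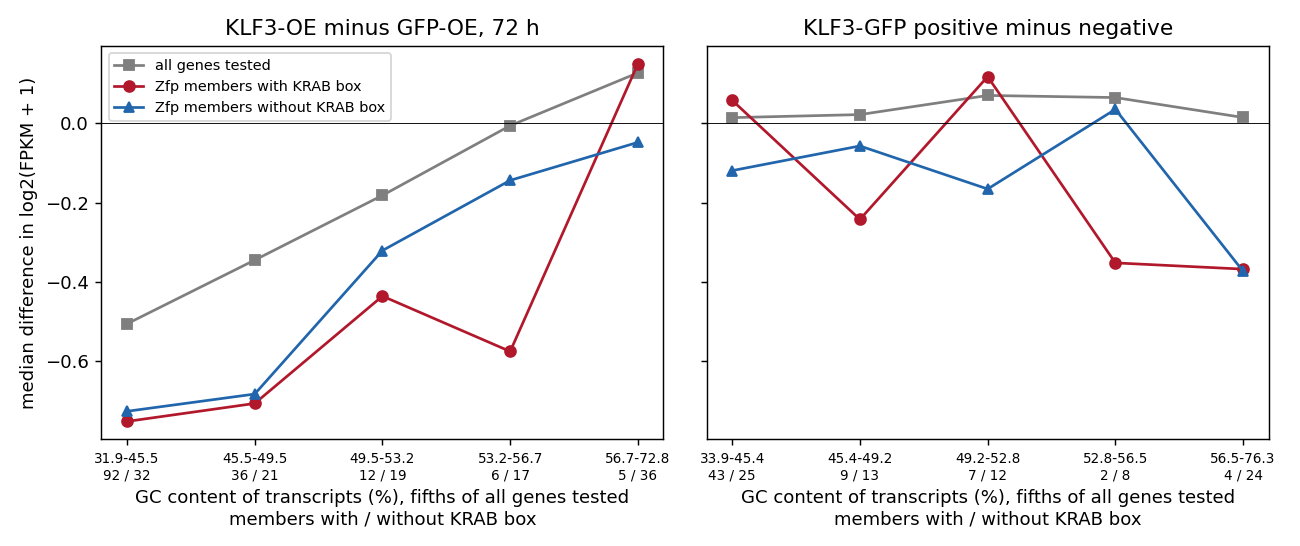
Median difference in log2(FPKM + 1) in 5 equal classes of all genes tested by GC content of their transcripts (percent), for all genes, members with a KRAB box and members without, on overexpression (left) and in sorted cells (right); the numbers under each class count members with and without the box. On overexpression the line of all genes climbs from -0.51 to 0.13 with GC content, and members lie below it in every class but the highest, where the 5 members with a KRAB box are close to it.

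Genomic span was a further property that went with the differences. In 5 equal classes of all genes by span, the median of all genes ran from 0.35 in the shortest to -0.49 in the longest. The members' median minus that of all genes was -0.56, -0.63, -0.37, -0.43 and -0.21 in the same order. By level, the median of members was -0.56 for the 58 with a mean of 1 to 2 FPKM, -0.76 for the 108 with 2 to 5, -0.43 for the 55 with 5 to 10, -0.76 for the 33 with 10 to 20 and -0.20 for the 24 with 20 or more. All genes in the same classes had medians of -0.25, -0.38, -0.37, -0.26 and 0.15, so the members were lower than all genes in each class, and by least at 5 to 10 FPKM. The members just inside that limit were Zfp882 (1.72 FPKM in GFP-OE, 0.31 in KLF3-OE) and Zfp282 (1.24 and 0.78), and just outside were Zfp169 (0.72 and 1.24) and Zfp563 (1.44 and 0.52).

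The 10 members with the lowest differences were all at 3.32 FPKM or more in GFP-OE. Zfp59, a KRAB protein with 16 fingers, was listed at 6.25 FPKM in GFP-OE and 0.16 in KLF3-OE, a difference of -2.64. Zfp445, a KRAB protein that helps to keep DNA methylation at imprinted loci, was at 5.62 FPKM in GFP-OE and at 0.10 in KLF3-OE, which no gene of that table was below. The neighbours Zfp955b (5.01 and 0.26 FPKM) and Zfp955a (3.32 and 0.17 FPKM) share 95.4% of their protein sequence, so their values may not be independent.

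Next in order came Zfp317 at 10.92 and 1.73 FPKM, Zfp934 at 7.95 and 1.21, Zfp869 at 13.13 and 2.51, Zfp808 at 16.37 and 3.86 and Zfp930 at 17.09 and 4.52, all with a KRAB box. Zfp934 was 92.4% identical to Zfp808 over the aligned part. Zfp146, at 17.52 and 3.59 FPKM, has 10 fingers and no KRAB box and was 81.6% identical to Zfp260, a neighbour that stood at the other end of its cluster with a difference of 0.42. Of these 10 members, all but Zfp146 carried a KRAB box.

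Above 2-fold were Zfp428, with 20.46 FPKM in GFP-OE and 62.33 in KLF3-OE, a difference of 1.56, and Zfp560, a KRAB protein, with 1.16 and 3.69 FPKM, a difference of 1.12. The next 8 in order stayed under the limit on the log2(FPKM + 1) scale. They were Zfp365 (2.61 and 6.09 FPKM), Zfp593 (12.88 and 25.65), whose yeast relative acts in ribosome assembly, Zfp688 (9.82 and 19.65), Zfp385a (9.78 and 19.36), Zfp672 (3.85 and 7.71), Zfp444 (18.92 and 33.93), Zfp36l1 (16.13 and 28.56) and Zfp771 (4.48 and 8.04). Of these 10 members, 2 carried a KRAB box (Zfp560 and Zfp688).

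**Figure D3:**
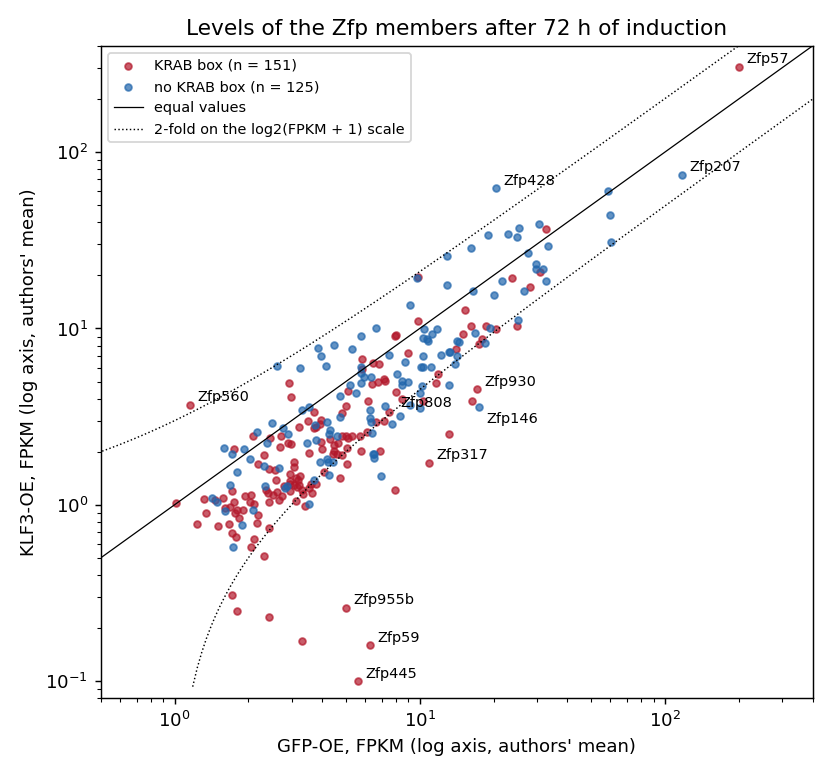
Level of each Zfp member in KLF3-OE against GFP-OE in FPKM, on log axes, each point 1 member at the authors' means, coloured by the presence of a KRAB box; the 2 members without a translated protein are not drawn. The solid line marks equal values and the dotted lines 2-fold on the log2(FPKM + 1) scale. Most points lie below the solid line, Zfp59, Zfp445 and Zfp955b lie far below it, and only Zfp428 and Zfp560 lie above the upper dotted line.

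The promoters of the members at both ends are shown because KLF3 belongs to a family of factors that bind CACCC boxes. Each sequence is from RefSeq (GRCm38.p6) and runs from 250 bases before to 50 bases after an annotated start, in the direction of the gene. Capitals mark CACCC, or GGGTG where the box lies on the other strand. The promoter of Zfp59 is chr7:27838334-27838633 on the plus strand, that of Zfp445 is chr9:122865957-122866256 on the minus strand, and that of Zfp955b is chr17:33289294-33289593 on the plus strand. Those of the members above 2-fold are chr9:20385109-20385408 on the minus strand for Zfp560 and chr7:24506837-24507136 on the plus strand for Zfp428.
Zfp59: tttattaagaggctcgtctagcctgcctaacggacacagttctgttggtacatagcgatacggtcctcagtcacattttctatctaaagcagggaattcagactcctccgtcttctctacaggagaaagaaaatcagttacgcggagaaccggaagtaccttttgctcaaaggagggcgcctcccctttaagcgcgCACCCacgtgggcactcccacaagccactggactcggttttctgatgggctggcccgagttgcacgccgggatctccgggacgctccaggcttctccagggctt
Zfp445: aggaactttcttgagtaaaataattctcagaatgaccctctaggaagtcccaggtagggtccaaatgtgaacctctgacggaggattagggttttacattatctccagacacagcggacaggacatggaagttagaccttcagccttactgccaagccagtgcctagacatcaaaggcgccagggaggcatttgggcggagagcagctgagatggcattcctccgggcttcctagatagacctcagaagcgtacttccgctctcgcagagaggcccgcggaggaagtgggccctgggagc
Zfp955b: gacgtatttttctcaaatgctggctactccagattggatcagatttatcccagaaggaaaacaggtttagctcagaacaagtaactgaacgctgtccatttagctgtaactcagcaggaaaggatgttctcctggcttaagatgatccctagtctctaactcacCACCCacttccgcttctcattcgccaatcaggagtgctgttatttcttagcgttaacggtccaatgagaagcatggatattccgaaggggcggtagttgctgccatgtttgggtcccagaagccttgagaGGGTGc
Zfp560: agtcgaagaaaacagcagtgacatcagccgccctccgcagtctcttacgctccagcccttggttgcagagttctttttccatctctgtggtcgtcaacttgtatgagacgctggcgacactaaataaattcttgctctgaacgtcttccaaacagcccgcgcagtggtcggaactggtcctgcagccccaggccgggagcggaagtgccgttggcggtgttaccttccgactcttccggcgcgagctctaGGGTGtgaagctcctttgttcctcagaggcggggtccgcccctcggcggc
Zfp428: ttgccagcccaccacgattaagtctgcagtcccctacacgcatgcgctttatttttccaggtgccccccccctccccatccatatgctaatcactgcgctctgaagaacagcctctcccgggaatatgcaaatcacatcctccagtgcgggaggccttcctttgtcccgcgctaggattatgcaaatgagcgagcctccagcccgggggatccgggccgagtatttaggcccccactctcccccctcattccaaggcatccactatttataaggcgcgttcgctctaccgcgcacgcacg

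Of these 5 promoters, Zfp955b held 2 matches, Zfp59 and Zfp560 held 1 each, and Zfp445 and Zfp428 held none. RefSeq promoters were matched for 229 of the 278 members. CACCC on either strand was in at least 1 promoter of 59.4% of matched members, against 59.8% of all genes of the promoter table and 67.2% of the genes tested. The share was 51.9% for members with a KRAB box, 68.7% for members without and 64.1% for members below 0.5-fold. The longer CCACACCC, which ends in CACCC so that each match is also counted there, was in 4.80% of members and 4.09% of all genes. The share of members was thus close to that of the promoter table and below that of the genes tested, with the members that carry a KRAB box the lowest. A match does not show binding.

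Many members lay in chromosome clusters, taken as chains of at least 4 members with starts no more than 1 Mb apart. There were 18 clusters with 139 members, and the other 139 were dispersed. The median difference on overexpression was below 0 in 17 clusters and below the median of all genes in 15, and every member was lower in 5 clusters. In 15 clusters other genes without C2H2 fingers lay between the members, and the members' median was below that of these neighbours in 11. Membership of a cluster made little difference on its own, with medians of -0.59 in clusters and -0.63 outside.

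The type of protein went with the position. Members with a KRAB box had a median of -0.72 in clusters (104 members) and -0.67 outside (47 members). Members without the box had a median of -0.03 in clusters (34 members) and -0.54 outside (91 members).

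The lowest cluster median, -0.97, was that of 6 members on chromosome 9 from 19.6 to 20.6 Mb (mm10 coordinates of the table). It held both Zfp317, at -2.13, and Zfp560, at 1.12, and the other 4 members lay between these. The 5 KRAB genes on chromosome 8 from 69.2 to 69.8 Mb, with Zfp869 and Zfp930, had a median of -0.92, and all were lower. On chromosome 7 the 4 members from 27.7 to 28.4 Mb, with Zfp59 at one end and Zfp36 (-0.08) at the other, had a median of -0.80.

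The large clusters had medians of the same direction. The largest, 18 members on chromosome 17 from 21 to 23.6 Mb, had a median of -0.72 and ran from Zfp945 (-1.38) to Zfp40 (0.15). A second cluster on chromosome 17, 11 members from 32.8 to 33.6 Mb, had a median of -0.76 and ran from Zfp955b (-2.25) to Zfp414 (0.05). On chromosome 7 from 29.8 to 30.2 Mb, 15 members had a median of -0.77, and 14 of them were lower. The 15 members on chromosome 13 from 66.7 to 67.8 Mb had a median of -0.57, with 14 lower, from Zfp640 (-1.07) to Zfp738 (0.16).

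A few clusters differed. The 5 members on chromosome 7 from 4.9 to 5.1 Mb, none with a KRAB box, had a median of 0.47, from Zfp865 (-0.92) to Zfp579 (0.68), and 4 of the 5 were higher in KLF3-OE. Their median GC content of 63.5% was the highest of all clusters. The 10 members on chromosome 7 from 127.2 to 127.9 Mb, 4 with a KRAB box, had a median of -0.14, and the 6 members on chromosome 6 from 47.9 to 48.6 Mb a median of -0.07. These clusters had GC contents of 58.2% and 55.8%, where the large cluster of chromosome 17 had 38.6%. The part of GC content in these differences was not tested within clusters.

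**Figure D4:**
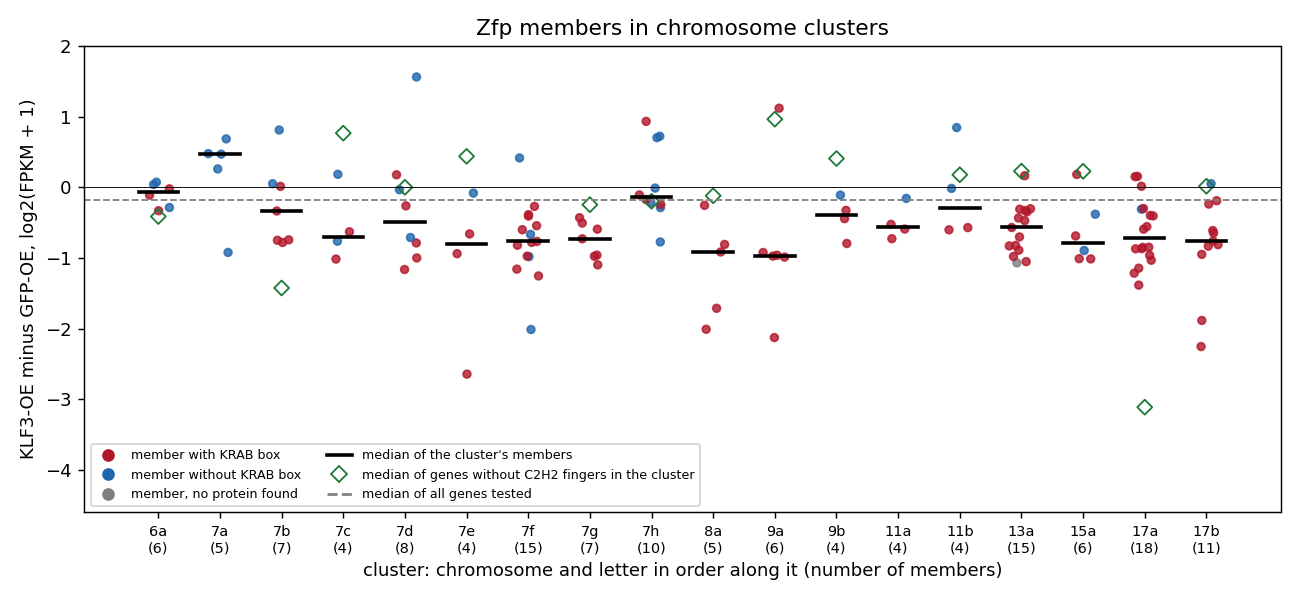
Difference between KLF3-OE and GFP-OE in log2(FPKM + 1) for each member in the 18 chromosome clusters, named by chromosome and a letter in order along it, with the number of members under each name. Points are members coloured by KRAB box, black bars are the medians of the members, diamonds are the medians of genes without C2H2 fingers in the same cluster where there are any, and the dashed line is the median of all genes tested (-0.18). All bars but that of cluster 7a (0.47) lie below 0, and the diamonds of 11 clusters lie above the bar.

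Members of known function were described by fixed lists. Of the imprint list, Zfp445 was below 0.5-fold, while Zfp57, the other KRAB protein that guards methylation at imprinted loci, was the most abundant member, at 200.50 FPKM in GFP-OE and 303.79 in KLF3-OE. Of the 4 members known to silence retroelements or single loci, 1 (25%) was below 0.5-fold, beside 10.1% of all genes. Lower were 3 (75%), beside 59.4%. The one below, Zfp819 (11.67 and 4.92 FPKM), came to -0.92 with the median ratio of the columns set to 0 and -0.80 with quantile normalization, inside the limit. The other 2 were Zfp568 (20.50 and 9.94 FPKM), which silences a placental promoter of Igf2, and Zfp809 (3.69 and 2.74), which silences retroviruses through their primer-binding site. Zfp932 was at 32.59 and 36.51 FPKM, and Zfp708, at 1.34 and 0.41 FPKM, was under the limit for members.

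Of the 8 members known as regulators in mESCs, 6 (75%) were lower, beside 59.4% of all genes and 84.2% of members. Below 0.5-fold was 1 (12.5%), near the 10.1% of all genes. The one below was Zfp217 (9.11 and 3.70 FPKM), which came to -0.94 and -0.81 with the median ratio set to 0 and with quantile normalization, inside the limit. The transcription factor Zfp281, which acts at Nanog, was at 11.08 and 6.07 FPKM, Zfp143 at 14.16 and 8.47, Zfp462 at 7.23 and 3.65, and Zfp322a at 8.93 and 4.96. Zfp207, which binds the mitotic checkpoint protein BUB3, was at 117.93 and 74.60 FPKM. Zfp296 (30.77 and 39.02) and Zfp706 (24.87 and 32.97) were higher in KLF3-OE.

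Of the 3 CCCH proteins, none was past a limit: Zfp36 was at 7.52 and 7.05 FPKM, Zfp36l1 at 16.13 and 28.56 and Zfp36l2 at 6.28 and 3.10. Of the large developmental zinc finger genes only Zfp423 (2.5 and 2.92 FPKM) and Zfp609 (4.43 and 1.75) reached the limit for members, with neither past 0.5-fold. A list of 2 further members, set with earlier results of these libraries known and so no independent support, held Zfp534, at 24.90 and 10.38 FPKM, and Zfp141, at 11.84 and 5.53. Their proteins were 91.5% and 85.9% identical to a further C2H2 protein. The remaining members with the highest levels were Zfp414 (58.39 and 60.54 FPKM), Zfp330 (59.55 and 44.07) and Zfp106 (60.49 and 30.87), an RNA-binding protein.

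The partners of KRAB proteins were also mostly lower, with 1 clear exception. Of 19 corepressor genes listed, 18 (94.7%) were lower in KLF3-OE, beside 59.4% of all genes, with a median of -0.81. Below 0.5-fold were 4 (21.1%), beside 10.1% of all genes. The 4 were Cbx3 (84.85 and 20.09 FPKM), which encodes an HP1 protein, Morc3 (25.39 and 5.41), Dnmt1 (51.84 and 16.94), the maintenance DNA methyltransferase, and Setdb1 (23.02 and 9.10). Trim28, the factor that the KRAB box binds, was at 644.17 FPKM in GFP-OE and 1892.18 in KLF3-OE, above 2-fold.

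The second comparison asked whether the members differed with the KLF3-GFP signal, positive cells against negative cells. The rule for members used no value of these samples, but the members were proposed with these results known, and those compared were kept by their own mean of at least 1 FPKM in sorted cells. They differed little as a group. Over the 148 members with a mean of at least 1 FPKM, the median difference was -0.05, with quartiles of -0.47 and 0.33, beside 0.03 for all 9212 genes tested, and 54.7% were lower in positive cells, where 48.1% of all genes were. On overexpression the same 148 members had a median of -0.43. The 270 listed members had a median level of 1.13 FPKM in negative and 1.08 in positive cells, and held 0.140% and 0.122% of all FPKM.

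Past the limits, 4 members (2.70%) were above 2-fold, where the share of all genes was 13.8%, and 9 (6.08%) were below 0.5-fold, where it was 8.32%. With quantile normalization these were 2 (1.35%) and 12 members (8.11%), beside 11.8% and 10.3% of all genes. The median was -0.04 for 65 members with a KRAB box and -0.07 for 82 without. On overexpression the same members had -0.56 and -0.36, a wider gap between both kinds, though this could not be tested. KRAB genes with other symbols had a median of 0.01 over 40 genes. Of these, 7 (17.5%) were below 0.5-fold and 2 (5.0%) above 2-fold, beside 8.32% and 13.8% of all genes. In clusters the median was 0.07 over 63 members, and outside it was -0.08 over 85.

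Single members nevertheless stood apart. Zfp672, with 13 fingers and no KRAB box, was at 8.66 FPKM in negative and 48.34 in positive cells, a difference of 2.35. Zfp948, a KRAB gene of the large cluster of chromosome 17, was at 1.59 and 7.25 FPKM, Zfp655 at 6.14 and 14.49 and Zfp560 at 10.81 and 23.03. Zfp954, at 0.73 and 2.45 FPKM, was just under 2-fold on the log2(FPKM + 1) scale.

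On the lower side, Zfp428 was at 49.36 FPKM in negative and 13.83 in positive cells, a difference of -1.76. Zfp532 was at 11.37 and 2.67 FPKM, Zfp444 at 26.52 and 10.49, and Zfp451, a SUMO ligase, at 26.94 and 10.64. Zfp57 was at 51.61 FPKM in negative and 20.36 in positive cells, and Zfp445 was listed at 0.34 and 0.44. The direction of Zfp57 was therefore opposite to that on overexpression, but its rise there depended on scaling (0.60 as reported, 0.11 with quantile normalization). Zfp445, the lower imprint protein on overexpression, was under 1 FPKM in both kinds of sorted cells.

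Of the mESC regulators, 7 of 8 (87.5%) were lower in positive cells, beside the 48.1% of all genes. Below 0.5-fold was 1 (12.5%), Zfp296 (16.27 and 7.31 FPKM), beside 8.32% of all genes. Of the 3 members known to silence retroelements or single loci that reached 1 FPKM, 1 was lower and none past a limit. The CCCH list had 2 genes at or above 1 FPKM and the large developmental list 2, with none past a limit. Zfp534 was at 2.43 and 0.63 FPKM and Zfp141 at 2.08 and 0.79. Of the 19 corepressor genes 13 (68.4%) were lower, beside 48.1% of all genes. Below 0.5-fold was 1 (5.3%), Cbx1 (220.10 and 99.48 FPKM), a smaller share than the 8.32% of all genes. Trim28 was at 268.29 and 163.16 FPKM.

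The experiments share no sample, so their differences can be set side by side over the 148 members, which differ in level, length and base composition but come from 1 library pair per condition. Pearson's r was -0.02 and Spearman's rho -0.02, beside 0.21 and 0.08 over the 8887 genes tested in both. Of the 148, 62 were lower in both, 17 higher in both, 50 lower in KLF3-OE and higher in positive cells, and 19 the reverse. In the same order the 8887 genes gave 2385, 2111, 2481 and 1890. The 62 depend on how many members were lower in each experiment, so no agreement is read from them. The members' differences on KLF3 induction thus showed no relation to those in cells sorted for the reporter. The relation was also weak over all genes, so its absence is not read as a trait of the family.

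Past the limits in the same direction were Zfp534, below in both, and Zfp560, above in both. Neither held under every scaling: with the median ratio set to 0, Zfp534 was at -0.99 on overexpression and Zfp560 at 0.99 in sorted cells (0.89 with quantile normalization). In opposite directions were Zfp428, above 2-fold on overexpression and below 0.5-fold in positive cells, and Zfp655, below 0.5-fold on overexpression (18.38 and 8.31 FPKM) and above 2-fold in positive cells. Each of these 4 classes thus held 1 of the 148 members. Of the 8887 genes tested in both, 61 were below in both and 227 above in both. A further 66 were placed like Zfp428 and 43 like Zfp655, so nothing particular to the family is read from these members. Zfp655 was at -0.87 on overexpression with the median ratio set to 0, and at -0.84 there and 0.98 in sorted cells with quantile normalization, which leaves it within the limits, while Zfp428 stayed past them under both scalings. The library types, the agents and the time of exposure differed between the experiments and cannot be told apart here.

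**Figure D5:**
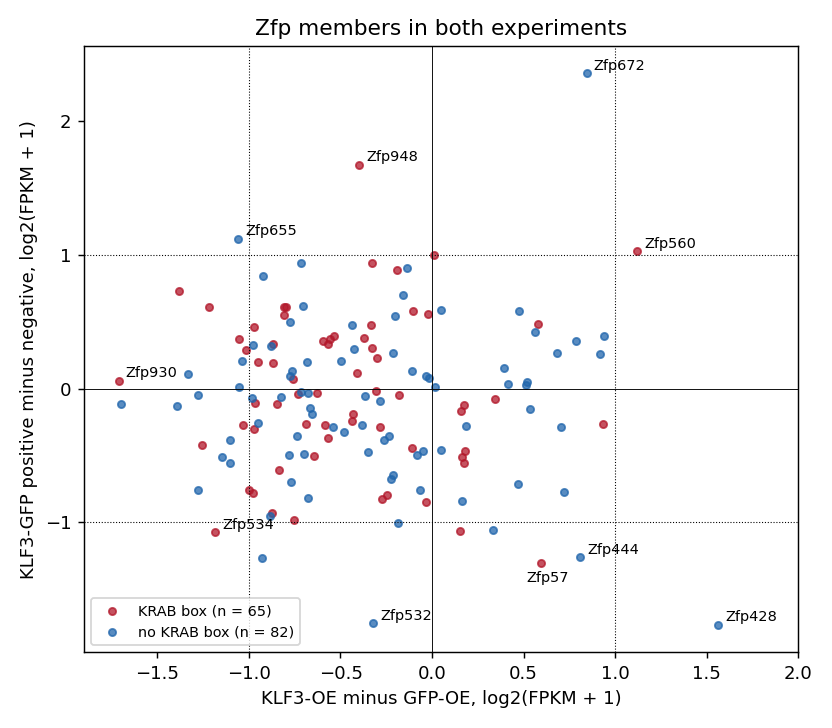
Difference of positive minus negative sorted cells against the difference of KLF3-OE minus GFP-OE, both in log2(FPKM + 1), for the members with at least 1 FPKM in both experiments (65 with a KRAB box, 82 without). Dotted lines mark 2-fold and 0.5-fold. The points spread around 0 on the vertical axis and mostly left of 0 on the horizontal axis, with Zfp534 and Zfp560 past the lines in the same direction and Zfp428 and Zfp655 in opposite directions.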

How the data were processed

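RNA-seq of 8 mESC samples (4 conditions with 2 samples each) was analysed from 2 tables of FPKM. The authors aligned reads to mm10 with STAR (version 2.6.0 in the submitters' processing notes; the methods name another) and computed FPKM with Cufflinks (version 2.2.1). The deposited FPKM columns hold the mean of both samples of a condition to 2 decimals, with 0.1 as the lowest value. Depth is unknown, as averaged and rounded FPKM from Cufflinks do not give back whole reads, and their number limits the precision. Groups follow the sample labels. The labels do not say whether replicates were separate cultures.

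The members and the gene lists were chosen with earlier results of these data known. The members' values on overexpression were used only through the limit of 1 FPKM on the mean. Differences of log2(FPKM + 1), a scale that shrinks those of low genes, were computed where the mean of both columns reached 1 FPKM. Limits of 2-fold and 0.5-fold were used as a description, since no test can be run on 1 mean per condition. Named genes were the 10 largest rises and 10 largest falls on overexpression, 5 of each in sorted cells, the 5 highest levels, members past a limit in both experiments, both ends of the clusters described, those beside the 1 FPKM limit, and 6 member lists with corepressors, 5 other zinc finger families and marker genes. The corepressor list held 20 symbols for 19 genes.

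Proteins were translated from the GENCODE M21 coding sequences with Biopython (version 1.88). A finger was C-X2-4-C-X12-H-X3-5-H. A KRAB box was a window of 34 residues scoring above 0 bits against a matrix built from 90 matches of a seed pattern, and near-identical copies were found with BLAST (version 2.17.0). Trends were removed by lowess (fraction 0.3, statsmodels version 0.14.6). Calculations used pandas (version 2.3.3), numpy (version 2.4.6) and Python (version 3.11.15), plots matplotlib (version 3.10.9), and the steps were checked on simulated data. Alternatives covered the pseudocount, the minimum level, scaling, gene span, GC content, near-identical copies and the distance that joins a cluster.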

Additional observations from a re-analysis of the deposited data

How the results depend on the processing

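No paired analysis was possible because each table gives 1 mean per condition, so leaving out replicates and a replicate block were not run, and none of the differences has an error. On overexpression, the median of members (-0.60 as reported) was -0.78 with a pseudocount of 0.1, -0.81 with no pseudocount, -0.44 at a mean of at least 5 FPKM, -0.46 with median-ratio scaling, -0.36 with quantile normalization, -0.46 without the trend with span, -0.24 without that with GC content and -0.32 without those with span, length and GC. It stayed below that of all genes throughout these. Members above 2-fold were 5 with no pseudocount, 1 at 5 FPKM, 8 with median-ratio scaling, 9 with quantile normalization, and 4, 4 and 5 without the trends in the same order. Members below 0.5-fold were 104 and 108 with the lower pseudocounts, 19 at 5 FPKM, 28 and 19 with the scalings, and 29, 16 and 22 without the trends. With quantile normalization and without the GC trend these were 6.8% and 5.8% of members, beside 6.4% and 5.2% of all genes. The share of lower members was 75% at 5 FPKM, 77.7% and 69.8% with the scalings, and 73.6% and 73.9% without the trends that include GC content.

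With a KRAB box, the median was -0.96 and -1.04 with the lower pseudocounts, -0.56 and -0.46 with the scalings, and -0.57, -0.25 and -0.36 without the trends. Without the box it was -0.24 and -0.19 with the scalings and -0.24 and -0.25 without the trends that include GC content. The trends with GC content were added after seeing the data. In sorted cells, 11 and 13 members were above 2-fold and 20 and 20 below 0.5-fold with the lower pseudocounts, the median was -0.18 at 5 FPKM and -0.16 with quantile normalization, which left 2 members above 2-fold, and the median without a KRAB box was -0.27 at 5 FPKM. None of these values changed sign, but the sorted-cell median with a KRAB box, -0.04 as reported, was 0.01 without near-identical copies. Of clusters, 75% and 81.3% had medians below that of all genes with 0.5 and 2 Mb as the joining distance, and 83.3% with 1 Mb. On overexpression without near-identical copies the median was -0.58 over 250 members.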
